A study of Mus musculus with 82 samples.

Results

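Cytochrome P450 genes were followed in ear skin of mice treated with imiquimod cream, with and without an inhibitor of the chemokine receptor CCR6. The genes were chosen by name, as rows whose symbol is Cyp followed by a digit, with Cyp51, Cyp4f39 and pseudogenes ending in -ps left out, and by level, as at least 0.5 CPM (read counts scaled to a common library total) in 6 or more libraries of either experiment. Of 107 candidate genes 40 were kept, out of 56941 genes in each deposited table. The other 67 were not followed, and 66 of them stayed under 0.5 CPM in every library. The data came from 82 RNA libraries of right ear punches of female C57BL/6J Rj mice. In the time course, sham (labelled vehicle), imiquimod, and imiquimod plus IDOR-1117-2520 (IDOR-1117-2520C in the treatment label) ears were taken at days 2, 5 and 8. In the start-day experiment there were sham ears, imiquimod ears, and imiquimod ears with IDOR-1117-2520 starting at D0, D3 or D5. Each of the 14 groups held 6 libraries, except the day 5 sham group with 4. Imiquimod, an agonist of TLR7, was put on the ears as a 5% cream each day from day 0 to day 7, and the drug was given in drinking water, from a day or more ahead of the first application according to the general protocol. The label for time of treatment reads day 8 for the start-day sham, imiquimod and D0 groups, day 5 for the D3 group and day 3 for the D5 group. The labels do not say whether this is the day of sampling or the length of drug treatment. For the D5 group day 3 comes before the drug start, so there it cannot be the day of sampling. No group was given the drug without imiquimod. Whether the libraries of a group came from different mice is not stated, so every p-value here reflects only the spread among these libraries, which may be technical.

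Cytochromes P450 are haem enzymes that insert an oxygen atom into their substrates, using electrons passed on by P450 oxidoreductase in the endoplasmic reticulum or by ferredoxin in mitochondria. Some make or break down signalling molecules, such as steroids, bile acids, oxysterols, retinoic acid, the hormone form of vitamin D and oxygenated fatty acids. Others, mainly of the CYP1, CYP2 and CYP3 families, clear foreign compounds, and in skin many P450s are made by keratinocytes, sebaceous glands and hair follicles. In RNA from whole punches, fewer cells of a type and less RNA per cell cannot be told apart.

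Levels below are CPM scaled by trimmed mean of M-values (TMM) factors, given as the lowest, median and highest library of a group, or as all 4 values for the day 5 sham group. The 2 tables were scaled separately, and levels were not compared between genes. A change was called at an adjusted p under 0.05 from edgeR's quasi-likelihood test over 18780 genes (time course) or 18434 genes (start-day experiment), and values after ± are standard errors of log2 fold changes. Time-course libraries held 13.1 M to 35.4 M counts and start-day libraries 24.1 M to 35.5 M. The kept genes closest to the minimum were Cyp2ab1 and Cyp24a1, whose sixth-highest library held 0.705 and 0.878 CPM, and the nearest genes outside it were Cyp3a59 (0.409) and Cyp2a22 (0.243). All 40 kept genes entered both fits. Cyp24a1 and Cyp2ab1 reached the minimum through sham but not through imiquimod-only libraries, and Cyp27b1 and Cyp8b1 through imiquimod-only but not through sham libraries, so their fall or rise was partly built into their selection.

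Imiquimod ears held lower levels of most P450 genes than sham ears. At day 2, 23 of 40 genes were lower and 5 higher, while 28.5% of all tested genes were lower and 29.2% higher (57.7% in either direction). At day 5, 28 were lower and 7 higher (35.9% and 34.6% of all genes, 70.4% in either direction), and at day 8, 29 were lower and 6 higher (33.6% and 34.5%, together 68.1%). The start-day experiment had 29 lower and 7 higher (39.9% and 38.1%, together 78.1%). The median log2 fold change of the 40 genes was -0.52, -1.17, -1.19 and -1.06 in these 4 comparisons, against -0.03, -0.04, -0.01 and -0.02 over all tested genes. In all 4 comparisons 21 genes were lower (21.4% of all genes) and 3 were higher (23.7% of all genes), namely Cyp1b1, Cyp7b1 and Cyp8b1. The rise of Cyp8b1 was partly built into its selection by level. Cyp1a1 and Cyp2s1 were called in both directions at different days, and Cyp2r1, a vitamin D hydroxylase, passed in none of the 4.

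With the drug, more P450 genes were higher than lower relative to imiquimod alone. At day 5, 22 genes were higher and 9 lower, against 18.3% and 17.2% of all tested genes (35.4% in either direction). With the drug from day 0, 21 were higher and 5 lower (18.2% and 16.9% of all genes, together 35.1%), from day 3, 19 and 5 (18% and 16.4%, together 34.3%), and from day 5, 21 and 3 (15% and 12.7%, together 27.7%). At day 2, 9 were higher and 1 lower (6.90% and 9.61%, together 16.5%), and at day 8, 5 were higher and 0 lower (1.22% and 0.335%, together 1.56%). The medians of the 40 log2 fold changes were 0.23, 0.45 and 0.21 at days 2, 5 and 8 and 0.46, 0.34 and 0.40 with the drug from days 0, 3 and 5, against 0.00 to 0.02 over all genes. Each of these comparisons uses the imiquimod libraries that also enter the comparison with sham, and the 3 start-day comparisons share them among themselves, so overlaps between comparisons were not computed.

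The day 2 and day 8 drug counts depended on single libraries. At day 2 the count was 5 in place of 10 without imiquimod library 9, without imiquimod library 11 or without drug library 13. In these fits 1416, 1740 and 1766 of all genes passed, against 3100 in the main fit. The count was 0 without imiquimod libraries 9 and 11 together, a fit in which 7 of all genes passed. It was also 0 when only the 2 compared groups were fitted, where 0 of all genes passed. At day 8 the count was 3 in place of 5 without imiquimod library 45 or 49 or drug library 52, 54 or 56. In these fits 134, 124, 98, 93 and 172 of all genes passed, against 293 in the main fit. The other drug comparisons held between 18 and 32 calls with any single library left out.

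**Figure D1:**
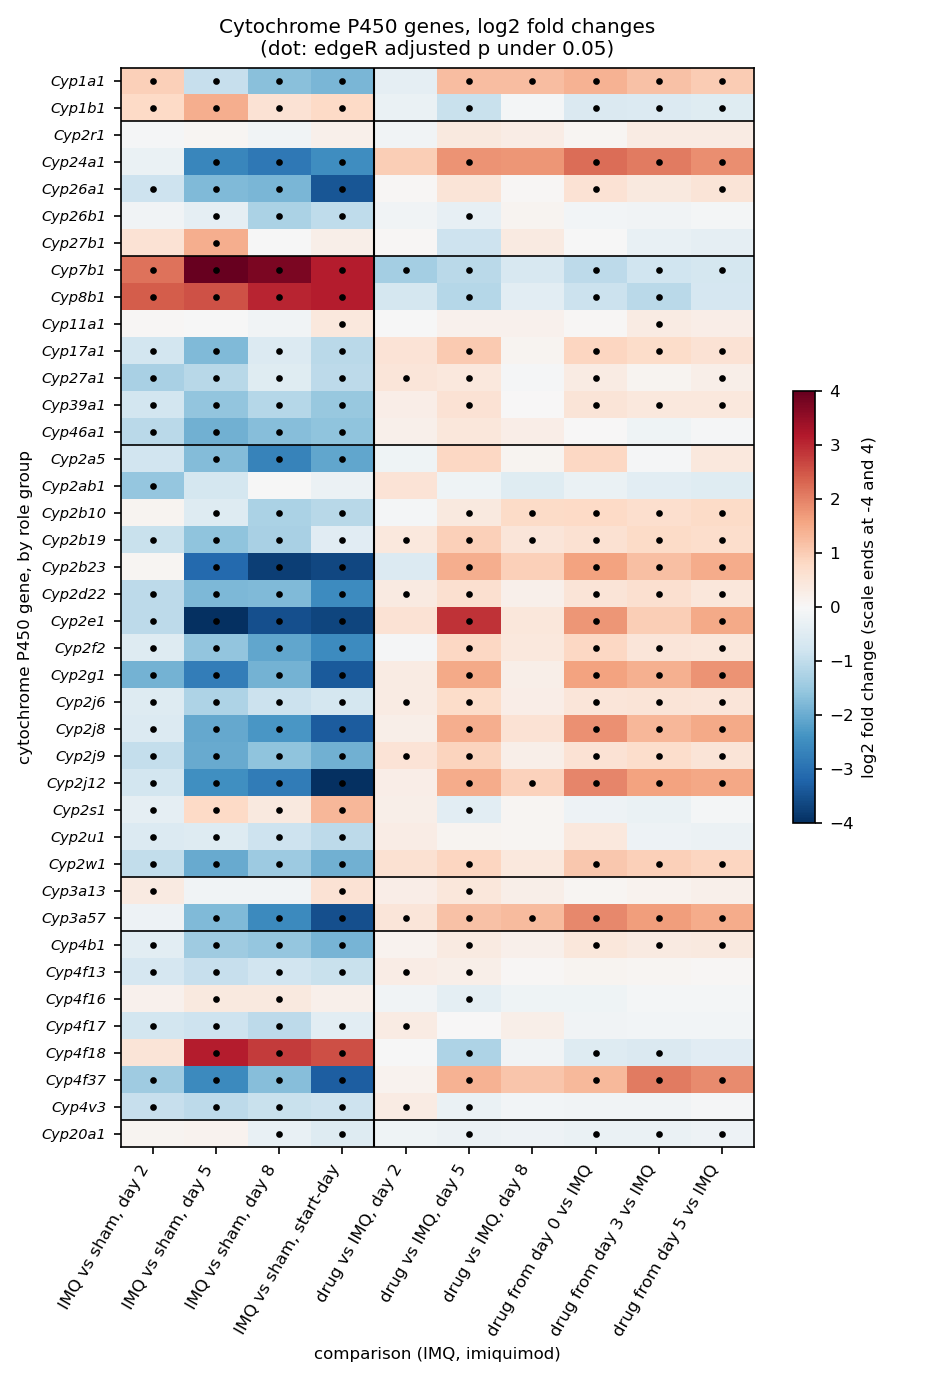
Log2 fold changes of the 40 P450 genes (rows, by role group) in the 4 comparisons of imiquimod with sham and the 6 of drug plus imiquimod with imiquimod (columns), with red for higher and blue for lower and a dot for an edgeR adjusted p under 0.05. Most rows are blue at left and pale red at right, and Cyp7b1, Cyp8b1, Cyp4f18 and Cyp1b1 have the opposite colours.

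The imiquimod effect differed among days for 26 of the 40 genes (F test on the day contrasts, edgeR adjusted p under 0.05, 33.4% of all genes), and the drug effect for 12 (7.99% of all genes). Among sham ears alone 2 of the 40 differed among days, Cyp11a1 and Cyp26b1 (5.52% of all genes). Levels with the drug did not pass for any of the 40 among the 3 start days (0.00542% of all genes). Of the 40, 5 had an unadjusted p under 0.05 in this edgeR F test. In DESeq2 1 of the 40 passed, Cyp2u1 (adjusted p 0.0378). There 130 of all genes passed, against 1 in edgeR. In the scatter of both experiments, the imiquimod values of the start-day experiment lay on the same side of 0 as those of day 8 for every gene called in both.

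**Figure D2:**
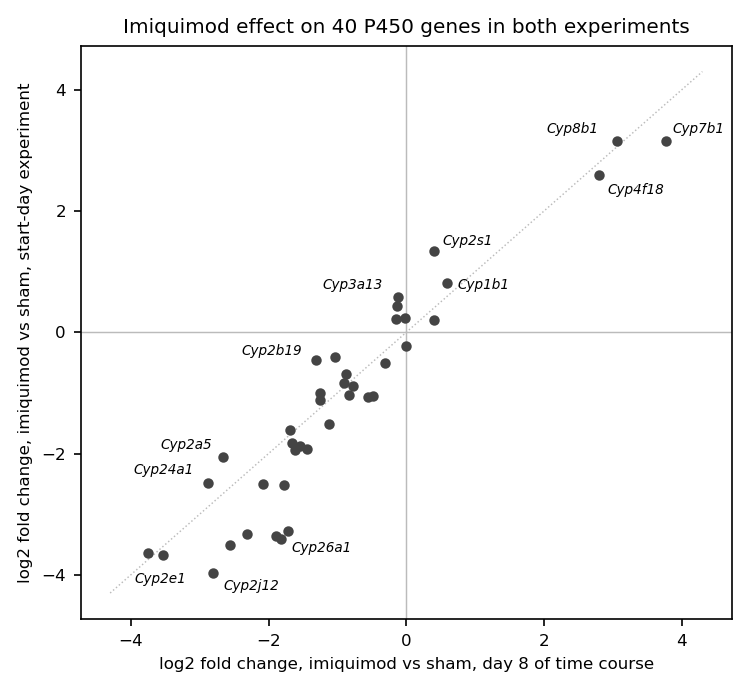
Log2 fold change of each of the 40 P450 genes for imiquimod against sham at day 8 of the time course (x axis) and in the start-day experiment (y axis), where each point is a gene and the dotted line marks equal values. Cyp7b1, Cyp8b1 and Cyp4f18 lie at the upper right, and Cyp2e1, Cyp2j12, Cyp2a5 and Cyp24a1 at the lower left.

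Among the 7 P450s of steroid, cholesterol and bile acid metabolism, Cyp7b1 and Cyp8b1 rose with imiquimod and Cyp17a1, Cyp27a1, Cyp39a1 and Cyp46a1 fell in all 4 comparisons. Of all genes, 23.7% rose and 21.4% fell in all 4. Cyp7b1, the oxysterol hydroxylase of the alternative bile acid pathway, which also takes part in making the oxysterol ligands of the immune cell receptor GPR183, held 2.69, 2.87 and 3.74 CPM in sham ears at day 2 and 4.63, 13.1 and 22.7 in imiquimod ears. Sham values at day 5 were 2.08, 2.10, 2.58 and 2.64 and the imiquimod values 33.03, 37.3 and 50.03. At day 8 they were 2.06, 3.05 and 4.39 and 30.02, 44.5 and 49.4. Every imiquimod ear was above every sham ear of its day. The log2 fold change was 2.16 ± 0.32 (edgeR adjusted p 2.25e-07) at day 2, 4.07 ± 0.39 (edgeR adjusted p 1.09e-12) at day 5 and 3.78 ± 0.32 (edgeR adjusted p 3.29e-14) at day 8. Start-day levels were 3.83, 4.70 and 5.42 in sham and 36.8, 40.9 and 45.8 in imiquimod ears, again without overlap, and the log2 fold change was 3.15 ± 0.18 (edgeR adjusted p 4.12e-15).

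With the drug, the median of Cyp7b1 lay between those of sham and imiquimod ears. At day 5 the drug ears held 6.11, 18.7 and 31.8 CPM, all below the imiquimod ears, a log2 fold change of -1.08 ± 0.27 (edgeR adjusted p 0.00163). With the drug from day 0, day 3 and day 5 the levels were 15.4, 18.8 and 25.7, then 18.5, 22.4 and 28.98, then 12.6, 24.4 and 34.2 CPM, and no drug ear of the 3 groups reached the lowest imiquimod ear. The log2 fold changes against imiquimod were -1.04 ± 0.16 (edgeR adjusted p 1.38e-05), -0.80 ± 0.16 (edgeR adjusted p 0.000275) and -0.70 ± 0.16 (edgeR adjusted p 0.00139). At day 2 the drug ears held 3.05, 5.52 and 7.61 CPM and overlapped the imiquimod ears, with a log2 fold change of -1.36 ± 0.31 (edgeR adjusted p 0.00265). Without imiquimod libraries 9 and 11 that value was -0.85 (adjusted p 0.191). At day 8 the drug ears held 18.8, 26.7 and 34.7 CPM and the difference did not pass (-0.64, edgeR adjusted p 0.247). Cyp7b1 was the 1 P450 gene called lower with the drug at day 2.

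Cyp8b1, the sterol hydroxylase of cholic acid synthesis, was present at low levels and gave 11 counts over the 6 sham libraries of day 2 and 52 over the 6 imiquimod libraries. Cyp8b1 reached the level minimum through imiquimod-only but not through sham libraries, so its rise was partly built into its selection. In start-day ears it held 0.0336, 0.138 and 0.362 CPM in sham and 0.931, 1.40 and 1.58 in imiquimod, a log2 fold change of 3.15 ± 0.36 (edgeR adjusted p 1.4e-09) with no overlap. At days 2, 5 and 8 the log2 fold changes were 2.44 ± 0.54 (edgeR adjusted p 0.000118), 2.54 ± 0.52 (edgeR adjusted p 2.71e-05) and 3.06 ± 0.48 (edgeR adjusted p 1.63e-07), and the groups overlapped at day 2 alone. Cyp8b1 fell with the drug at day 5 (-1.14 ± 0.40, edgeR adjusted p 0.0233), from day 0 (-0.86 ± 0.30, edgeR adjusted p 0.0231) and from day 3 (-1.09 ± 0.30, edgeR adjusted p 0.00475). It did not pass at days 2 and 8 or with the drug from day 5. Without drug library 31 or 34 the day 5 value was -1.03 (adjusted p 0.0553) or -0.97 (adjusted p 0.066). Without drug library 26 or 27 the value from day 0 was -0.77 (adjusted p 0.0573) or -0.74 (adjusted p 0.0631). Markers of hepatocytes, the cells in which Cyp8b1 is best known, were at low levels too. The 5 markers together held 0.0410 to 2.55 CPM over all groups. Their sum was lower in the start-day imiquimod ears (0.202 to 1.02) than in the sham ears (1.11 to 1.88). Of the 5 markers 1 had enough counts to enter the tests, and the part of such cells in the Cyp8b1 result was not tested.

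Cyp27a1, a mitochondrial sterol hydroxylase, fell with imiquimod at every time. It held 10.4, 13.2 and 14.5 CPM in sham and 3.58, 5.24 and 6.81 in imiquimod ears at day 2, and 11.3, 13.98 and 14.3 and 7.78, 9.48 and 10.8 at day 8. The groups did not overlap at either day. Its log2 fold change was -1.30 ± 0.12 (edgeR adjusted p 5.77e-13) at day 2, -1.12 ± 0.13 (edgeR adjusted p 9.68e-11) at day 5, -0.48 ± 0.12 (edgeR adjusted p 0.000332) at day 8 and -1.06 ± 0.09 (edgeR adjusted p 1.49e-12) in the start-day experiment, and the effect differed among days (edgeR F test, adjusted p 0.000319). It was higher with the drug at day 5 (0.42 ± 0.12, edgeR adjusted p 0.00536) and from day 0 (0.33 ± 0.09, edgeR adjusted p 0.0046). It did not pass at day 8 or with the drug from day 3. The call from day 5 (0.24, edgeR adjusted p 0.0498) was lost without any 1 of imiquimod libraries 7, 9 and 11 or drug libraries 13 to 17, at adjusted p 0.0674 to 0.16. It was also lost in DESeq2 (adjusted p 0.0542) and in limma voom (0.0503). In edgeR it was lost with RLE size factors (0.0638), a filter of 1 CPM (0.0556), no low-count filter (0.0796) and only the compared groups (0.0775). At day 2 the log2 fold change was 0.47 ± 0.13 (edgeR adjusted p 0.00815), and 0.31 (adjusted p 0.25) without imiquimod libraries 9 and 11.

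Cyp39a1 and Cyp46a1, oxysterol and cholesterol hydroxylases, fell by more at day 5 (-1.59 and -1.91) than at day 2 (-0.74 and -1.07), and the effects differed among days (edgeR F test, adjusted p 0.00377 and 0.0215). Cyp39a1 was higher with the drug at day 5 and from all 3 start days (0.42 to 0.59), and Cyp46a1 passed in none of the 6 drug comparisons (-0.17 to 0.45). Cyp17a1, a hydroxylase and lyase of steroid hormone synthesis, fell, with log2 fold changes of -1.76 ± 0.22 (edgeR adjusted p 1.58e-09) at day 5 and -1.07 ± 0.19 (edgeR adjusted p 1.06e-05) in the start-day experiment, and its day 8 call was lost without imiquimod library 49 (-0.44, adjusted p 0.052). It was higher with the drug at day 5 (1.03 ± 0.21, edgeR adjusted p 0.000135), from day 0 (0.86) and from day 3 (0.72). Its call from day 5 (0.57, edgeR adjusted p 0.0279) was lost without any 1 of imiquimod libraries 8 to 11 or drug libraries 13 and 16, at adjusted p 0.055 to 0.113.

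Cyp11a1, which cleaves the side chain of cholesterol in the first step of steroid synthesis, did not follow the others. Sham ears themselves differed among days (2.59, 4.50 and 5.26 CPM at day 2, 4.82, 5.08, 5.94 and 6.35 at day 5 and 6.25, 7.57 and 8.54 at day 8; edgeR F test, adjusted p 0.000834). Imiquimod against sham gave 0.03, -0.00 and -0.14 at days 2, 5 and 8, none of which passed, and a rise of 0.43 ± 0.11 (edgeR adjusted p 0.00077) in the start-day experiment. With the drug from day 3 it was higher than with imiquimod alone (0.32 ± 0.11, edgeR adjusted p 0.0229), a call lost without imiquimod library 8 (0.23, adjusted p 0.091) or drug library 21 (adjusted p 0.0543) or 24 (0.055).

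**Figure D3:**
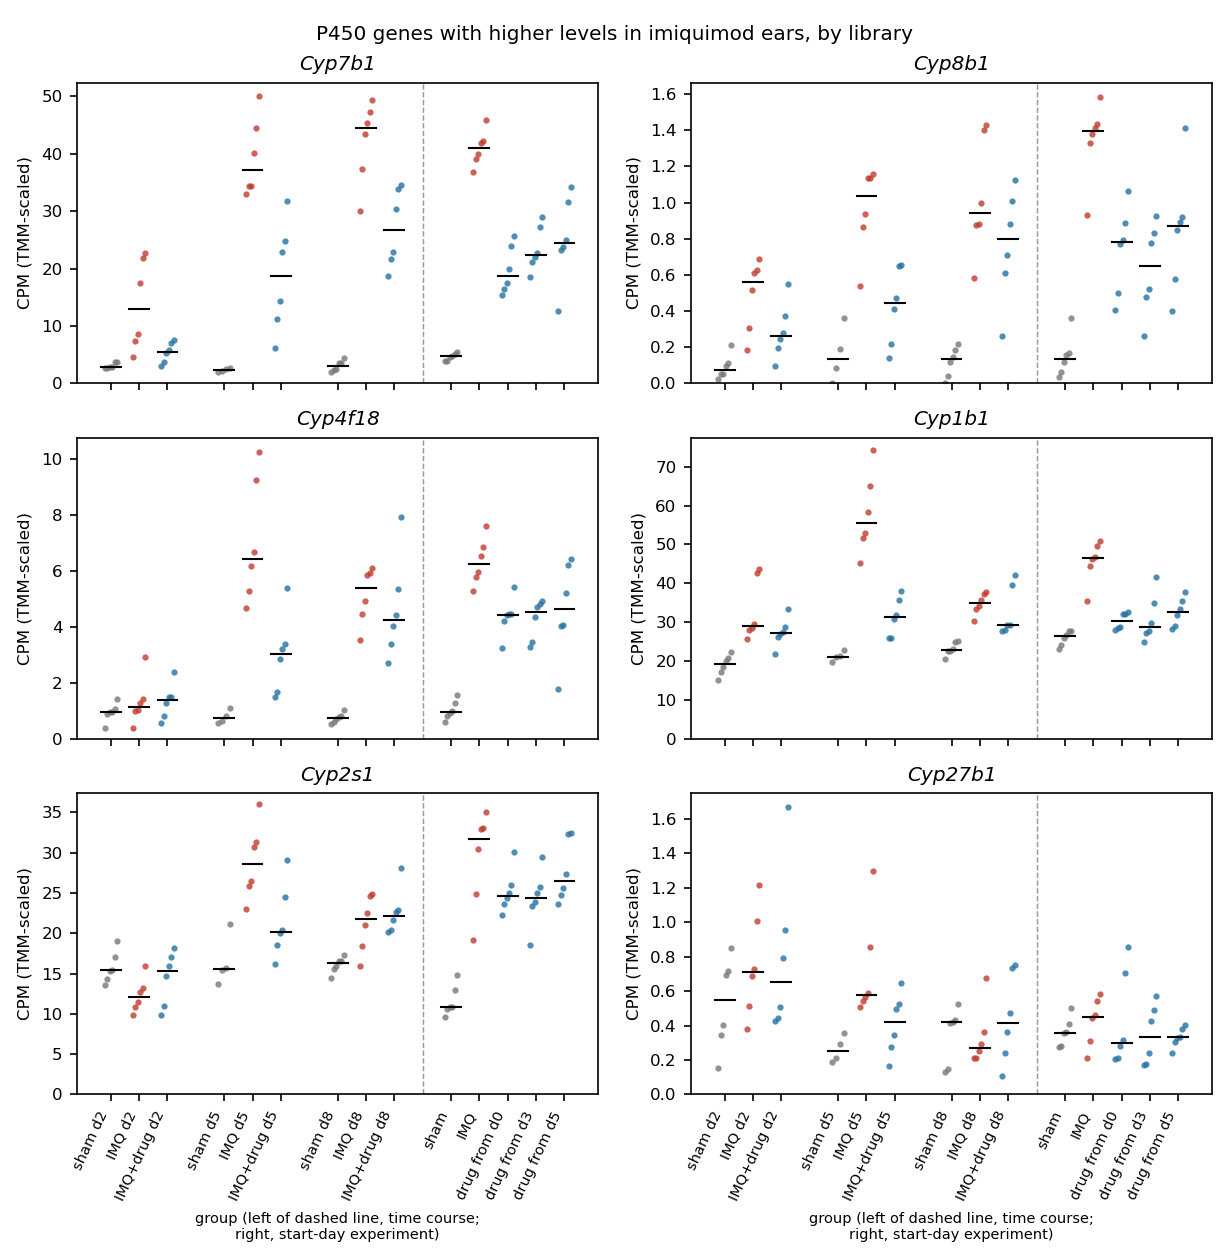
CPM (TMM-scaled, linear axes from 0) of Cyp7b1, Cyp8b1, Cyp4f18, Cyp1b1, Cyp2s1 and Cyp27b1 in each library (points) with group medians (bars), sham in grey, imiquimod in red and drug plus imiquimod in blue. Imiquimod ears stand above sham ears from day 5 for Cyp7b1, Cyp8b1, Cyp4f18 and Cyp1b1, drug ears mostly lie between them, and Cyp27b1 overlaps in every group except imiquimod against sham at day 5.

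Of the 5 retinoid and vitamin D P450s, 3 fell with imiquimod at day 5, day 8 and in the start-day experiment, namely Cyp26a1, Cyp26b1 and Cyp24a1. In these comparisons 35.9%, 33.6% and 39.9% of all tested genes fell. The fall of Cyp24a1 was partly built into its selection by level. Cyp26a1 and Cyp26b1 break down retinoic acid, and Cyp26a1 is a classical target gene of the retinoic acid receptor. The 250 bases ahead of the Cyp26a1 start are shown because they hold a pair of nuclear receptor half-sites. The sequence is from RefSeq (GRCm38.p6, chr19:37697558-37697807, plus strand), 5′ to 3′ on the gene's strand. Capitals mark AGTTCA read on the opposite strand, as TGAACT.
Cyp26a1: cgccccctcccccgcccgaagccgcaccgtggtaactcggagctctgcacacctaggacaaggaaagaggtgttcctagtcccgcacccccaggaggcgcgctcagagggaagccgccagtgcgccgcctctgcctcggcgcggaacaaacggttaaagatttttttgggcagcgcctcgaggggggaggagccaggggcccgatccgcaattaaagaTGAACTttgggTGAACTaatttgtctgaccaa
The matches begin 32 and 21 bases before the start and have the same orientation. AGTTCA, searched on both strands, was found in 11.8% of 32851 RefSeq promoters of the same length and in 6 of the 33 promoters listed for 32 of the P450 genes (18.2%).

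Cyp26a1 held 13.8, 16.5 and 24.4 CPM in sham and 6.58, 10.4 and 13.9 in imiquimod ears at day 2. Day 5 sham values were 9.32, 13.2, 13.2 and 15.2 and the imiquimod values 3.07, 3.74 and 4.38. Start-day values were 19.3, 29.3 and 35.9 and 1.76, 2.88 and 3.24. The groups overlapped at day 2 only. The log2 fold changes were -0.84 ± 0.19 (edgeR adjusted p 0.000223) at day 2, -1.76 ± 0.22 (edgeR adjusted p 1.17e-09) at day 5, -1.82 ± 0.21 (edgeR adjusted p 1.14e-10) at day 8 and -3.42 ± 0.18 (edgeR adjusted p 1.5e-16) in the start-day experiment. With the drug it was 3.40, 3.99 and 4.56 CPM from day 0, above all imiquimod ears yet below all sham ears (0.57 ± 0.20, edgeR adjusted p 0.0232), and the value from day 5 was 0.52 ± 0.19 (edgeR adjusted p 0.0472). Single libraries ended both calls. The call from day 0 was lost without drug library 27 or imiquimod library 8 or 9 (adjusted p 0.0534 to 0.0658), and that from day 5 without any 1 of drug libraries 13, 15, 16 and 18 or imiquimod libraries 7 to 10 (0.0526 to 0.12). Both were also lost in limma voom (adjusted p 0.139 and 0.216) and in edgeR without the filter on low counts (0.0767 and 0.138). The call from day 5 was lost with RLE size factors too (edgeR adjusted p 0.0546). At days 2, 5 and 8 the drug values were 0.03, 0.51 and 0.06, and none passed.

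Cyp26b1 followed another time course. It held 223, 234 and 247 CPM in sham and 182, 219 and 228 in imiquimod ears at day 2, which did not pass (-0.15, edgeR adjusted p 0.0663). By day 5 sham ears held 223, 241, 244 and 264 and imiquimod ears 160.1, 185 and 227, a log2 fold change of -0.37 ± 0.08 (edgeR adjusted p 4.39e-05). At day 8 they were 266, 287 and 309.9 and 110.5, 119.8 and 133, a fold change of -1.25 ± 0.07 (edgeR adjusted p 4.78e-21) with no overlap. Imiquimod ears thus lay lower at day 8 than at day 2, and sham ears higher. The effect differed among days (edgeR F test, adjusted p 1.06e-11), and so did the sham ears alone (adjusted p 0.0105). The start-day change was -1.01 ± 0.07 (edgeR adjusted p 2.66e-14). With the drug Cyp26b1 was lower again at day 5 (-0.32 ± 0.07, edgeR adjusted p 0.000323, 135, 149 and 178 CPM) and passed in no other drug comparison (-0.15 to 0.11).

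Cyp24a1, which breaks down the hormone form of vitamin D, was a low-level gene. Cyp24a1 reached the level minimum through sham but not through imiquimod-only libraries, so its fall was partly built into its selection. Sham ears held 0.419, 0.519, 0.569 and 1.20 CPM at day 5 and imiquimod ears 0, 0.0743 and 0.350, and over the 6 imiquimod libraries it gave 13 counts against 67 over the 4 sham libraries. At day 8 it gave 7 counts against 81. It changed by log2 -2.62 ± 0.54 (edgeR adjusted p 3.09e-05) at day 5, -2.87 ± 0.58 (edgeR adjusted p 2.15e-05) at day 8 and -2.48 ± 0.55 (edgeR adjusted p 0.000145) in the start-day experiment, and -0.26 at day 2, which did not pass. It was higher with the drug at day 5 (1.79 ± 0.54, edgeR adjusted p 0.00707), from day 0 (2.23 ± 0.57, edgeR adjusted p 0.00249), from day 3 (2.07 ± 0.57, edgeR adjusted p 0.00515) and from day 5 (1.85 ± 0.59, edgeR adjusted p 0.0177). At days 2 and 8 its drug difference did not pass. Single libraries moved the called values. Without imiquimod library 26 the day 5 drug value was 2.77 (adjusted p 0.000351). Without imiquimod library 12 those from day 3 and day 5 were 3.15 (adjusted p 0.000222) and 2.93 (adjusted p 0.000892), and without drug library 15 the latter was 1.48 (adjusted p 0.0759).

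Cyp27b1, which makes the hormone form of vitamin D, rose with imiquimod at day 5 alone (1.44 ± 0.48, edgeR adjusted p 0.00661). Cyp27b1 reached the level minimum through imiquimod-only but not through sham libraries, so this rise was partly built into its selection. It held 0.190, 0.210, 0.291 and 0.360 CPM in sham and 0.508, 0.579 and 1.30 in imiquimod ears, without overlap. The values at day 2, day 8 and in the start-day experiment were 0.57, -0.01 and 0.23 and did not pass, and the difference among days did not pass either (edgeR F test, adjusted p 0.182). No drug comparison of Cyp27b1 passed (-0.83 to 0.37). A list of 5 genes was also counted: the vitamin D receptor gene Vdr, the retinoid X receptor genes Rxra, Rxrb and Rxrg, and the precursor gene Dhcr7. Of these 5, 2 fell at day 2, 5 at day 5 and 4 at day 8, with 0 higher. In the start-day experiment 1 rose and 3 fell. Of all genes 28.5%, 35.9%, 33.6% and 39.9% were lower in these comparisons. The receptor Vdr stood at -0.27 ± 0.06 (edgeR adjusted p 6.44e-05) at day 5. With the drug 1, 5 and 1 of the 5 were higher at days 2, 5 and 8 (Vdr 0.22 at day 5), and 5, 4 and 5 from days 0, 3 and 5. Of all tested genes 6.90%, 18.3% and 1.22% were higher at days 2, 5 and 8, and 18.2%, 18% and 15% from days 0, 3 and 5.

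The other genes of retinoid handling moved in both directions. Of all tested genes, 57.7%, 70.4%, 68.1% and 78.1% were called in either direction at days 2, 5 and 8 and in the start-day experiment. Of 17 genes of retinoid metabolism and receptors, 8 rose and 6 fell at day 2, 6 and 6 at day 5, 5 and 8 at day 8, and 5 and 8 in the start-day experiment. There the retinol dehydrogenase gene Dhrs9 rose by log2 4.36, while Rbp4, the plasma retinol carrier, stood at -2.67 and Dhrs3, a retinaldehyde reductase, at -1.23, all past the threshold.

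**Figure D4:**
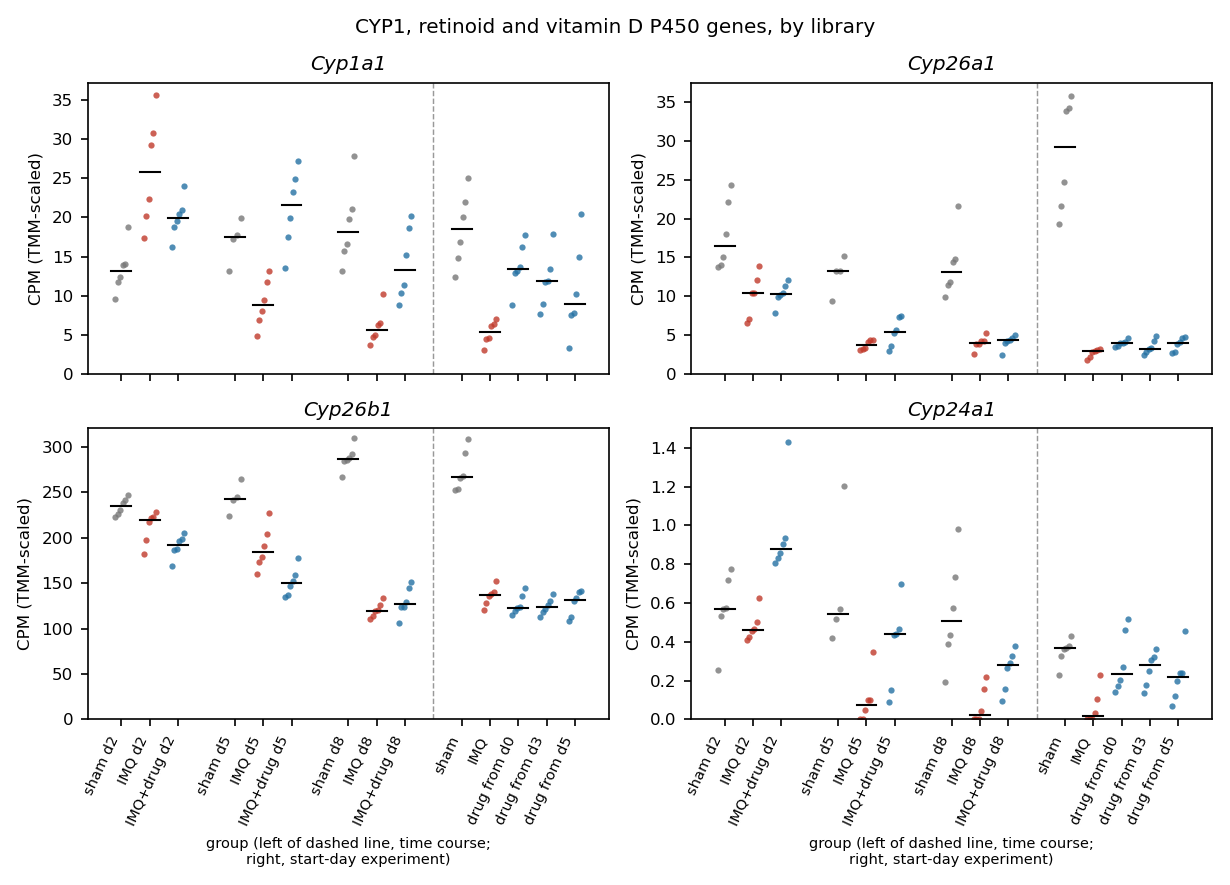
CPM (TMM-scaled, linear axes from 0) of Cyp1a1, Cyp26a1, Cyp26b1 and Cyp24a1 in each library (points) with group medians (bars), sham in grey, imiquimod in red and drug plus imiquimod in blue. Cyp1a1 is higher in imiquimod than in sham ears at day 2 and lower from day 5, and Cyp26a1 stays low with the drug. In imiquimod and drug ears, not in sham ears, Cyp26b1 is lowest at day 8 and in the start-day experiment.

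Cyp1a1 and Cyp1b1, the 2 kept genes of the CYP1 family, are induced by the aryl hydrocarbon receptor, and both metabolise aromatic compounds and steroids. Their promoters are shown because the 2 genes moved apart after day 2. Both are from RefSeq (GRCm38.p6), the 250 bases ahead of the start, 5′ to 3′ on the gene's strand, for Cyp1a1 chr9:57697363-57697612, plus strand and for Cyp1b1 chr17:79715062-79715311, minus strand. Capitals mark GCGTG, the core of the dioxin response element, on either strand (CACGC on the other).
Cyp1a1: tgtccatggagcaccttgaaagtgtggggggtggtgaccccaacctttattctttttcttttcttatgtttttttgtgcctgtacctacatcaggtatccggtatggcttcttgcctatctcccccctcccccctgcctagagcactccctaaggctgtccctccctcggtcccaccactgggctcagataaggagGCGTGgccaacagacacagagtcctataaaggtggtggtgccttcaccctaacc
Cyp1b1: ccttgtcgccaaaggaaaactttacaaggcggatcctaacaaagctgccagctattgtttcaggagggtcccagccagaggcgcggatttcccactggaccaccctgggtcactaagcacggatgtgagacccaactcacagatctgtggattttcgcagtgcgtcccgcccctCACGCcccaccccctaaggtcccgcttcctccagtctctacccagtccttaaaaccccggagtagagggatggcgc
Each holds 1 match, which begins 54 bases before the start in Cyp1a1 and 76 in Cyp1b1. GCGTG was found in 28.2% of all 32851 promoters of this length and in 11 of the 33 P450 promoters (33.3%).

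Cyp1a1 rose at day 2 and fell afterwards. Its levels were 9.61, 13.1 and 18.8 CPM in sham and 17.4, 25.9 and 35.6 in imiquimod ears at day 2, overlapping at the edge. At day 5 the sham values were 13.1, 17.2, 17.7 and 19.9 and the imiquimod values 4.87, 8.77 and 13.1, and at day 8 they were 13.1, 18.2 and 27.8 and 3.64, 5.61 and 10.2. Every imiquimod ear was below every sham ear at day 8. The log2 fold change was 0.95 ± 0.22 (edgeR adjusted p 0.000236) at day 2, -0.91 ± 0.24 (edgeR adjusted p 0.00101) at day 5 and -1.66 ± 0.24 (edgeR adjusted p 3.24e-08) at day 8, and the effect differed among days (edgeR F test, adjusted p 5.25e-08). In the start-day experiment it was -1.82 ± 0.31 (edgeR adjusted p 6.02e-06), with 12.4, 18.5 and 25.04 CPM in sham and 3.01, 5.36 and 7.00 in imiquimod ears.

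With the drug Cyp1a1 was 13.6, 21.6 and 27.2 CPM at day 5, above every imiquimod ear (1.22 ± 0.22, edgeR adjusted p 3.31e-05), and 8.86, 13.3 and 20.2 at day 8, where the groups overlapped (1.23 ± 0.24, edgeR adjusted p 0.00608). The day 2 value did not pass (-0.37, edgeR adjusted p 0.239), and the drug effect differed among days (edgeR F test, adjusted p 0.00152). From day 0 and day 3 the drug values were 1.39 ± 0.31 (edgeR adjusted p 0.000938) and 1.19 ± 0.31 (edgeR adjusted p 0.0039), with no overlap with imiquimod ears. From day 5 it was 1.02 ± 0.31 (edgeR adjusted p 0.0158) with levels of 3.31, 8.98 and 20.4 CPM, and without drug library 13 it was 0.74 (adjusted p 0.0754). This call was also lost in limma voom (adjusted p 0.114) and in edgeR with only the compared groups (0.0797).

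Cyp1b1 was higher in imiquimod ears throughout. Levels were 19.7, 21.01, 21.3 and 22.8 CPM in sham and 45.1, 55.6 and 74.4 in imiquimod ears at day 5, and the groups did not overlap in any of the 4 comparisons. Against sham it rose by log2 0.79 ± 0.13 (edgeR adjusted p 6.63e-07) at day 2, 1.45 ± 0.14 (edgeR adjusted p 1.43e-12) at day 5, 0.58 ± 0.13 (edgeR adjusted p 5.77e-05) at day 8 and 0.81 ± 0.10 (edgeR adjusted p 1.18e-08) in the start-day experiment. The drug gave lower Cyp1b1 at day 5 (-0.88 ± 0.12, edgeR adjusted p 3.55e-07) and from days 0, 3 and 5 (-0.58, -0.55 and -0.48, all past the threshold), and the day 2 and day 8 values, -0.26 and -0.09, did not pass. Of 7 genes of the aryl hydrocarbon receptor pathway, 3 rose and 3 fell at day 2, 2 and 2 at day 5, and 2 and 3 both at day 8 and in the start-day experiment. Of all tested genes, 57.7%, 70.4%, 68.1% and 78.1% were called in either direction in these comparisons. The receptor Ahr fell at day 5, with a log2 fold change of -0.53 ± 0.08 (edgeR adjusted p 3.21e-08), while Tiparp and Nqo1, other target genes of the receptor, rose by 1.32 ± 0.15 (edgeR adjusted p 1.32e-10) and 1.31 ± 0.10 (edgeR adjusted p 2.65e-16). At day 5 the drug values were -0.63 for Tiparp and -0.58 for Nqo1, both past the threshold and opposite in sign to that of Cyp1a1, and 0.05 for Ahr, which did not pass.

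The CYP2 family was the largest role group, with 16 genes. With imiquimod 13 were lower and 0 higher at day 2, and 14 were lower and 1 higher at day 5, at day 8 and in the start-day experiment (28.5%, 35.9%, 33.6% and 39.9% of all tested genes were lower, and 5 of 7 CYP4 genes in each comparison), with medians of -0.76, -1.75, -1.70 and -2.0. With the drug 12 were higher and 1 lower at day 5, 12, 11 and 12 were higher and 0 lower from days 0, 3 and 5, 4 were higher at day 2 and 3 at day 8. Of all tested genes 18.3% were higher and 17.2% lower at day 5. From days 0, 3 and 5 18.2%, 18% and 15% were higher and 16.9%, 16.4% and 12.7% lower. The shares higher at days 2 and 8 were 6.90% and 1.22%. Cyp2e1, which oxidises ethanol and other small molecules, held 1.74, 3.90, 4.95 and 8.95 CPM in sham ears at day 5 and 0, 0.101 and 0.245 in imiquimod ears, or 487 counts over 4 libraries and 13 over 6. The groups did not overlap, and the log2 fold change was -5.44 ± 0.62 (edgeR adjusted p 9.18e-11). At day 8 and in the start-day experiment it was -3.53 ± 0.49 (edgeR adjusted p 1.44e-08) and -3.68 ± 0.42 (edgeR adjusted p 1.8e-09). At day 2 it was -1.04 ± 0.43 (edgeR adjusted p 0.0338) with overlap, a call lost without any 1 of imiquimod libraries 7, 9, 10 and 11 or sham libraries 1 and 6 (adjusted p 0.0674 to 0.0908). The drug ears held 0.350, 0.762 and 1.76 CPM at day 5, above every imiquimod ear, with the highest drug ear level with the lowest sham ear (2.89 ± 0.68, edgeR adjusted p 0.000727). Adipocyte markers, genes of another cell type with known Cyp2e1 expression, were lower for 10 of 10 at day 5, with their sum at 439 to 582 CPM in sham, 213 to 269.8 in imiquimod and 283 to 457 in drug ears, and their part in the result was not tested.

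Cyp2j6, Cyp2j8, Cyp2j9 and Cyp2j12, which lie close together in the RefSeq gene order, all fell in all 4 comparisons but by unequal amounts. Of all genes, 21.4% fell in all 4. The day 2 call of Cyp2j8 (-0.54) was lost without imiquimod libraries 9 and 11 (adjusted p 0.0659). Cyp2j12 in the start-day experiment had a log2 fold change of -3.97 ± 0.24 (edgeR adjusted p 7.5e-16), from 10.8, 11.6 and 14.2 CPM in sham to 0.411, 0.767 and 1.15 in imiquimod ears. Cyp2j8 and Cyp2j9 stood at -3.32 and -1.94, and Cyp2j6 at -0.69 ± 0.07 (edgeR adjusted p 3.82e-11), from 68.9, 73 and 78.2 to 41.1, 45.7 and 51.7 CPM. Sham and imiquimod ears did not overlap for these genes there, where 78.1% of all tested genes were called in either direction. The share of all genes without overlap was not computed for any comparison. With the drug all 4 were higher at day 5 (0.72 to 1.48) and from days 0, 3 and 5 (0.47 to 1.94). Cyp2j12 with the drug from day 0 held 1.46, 3.12 and 3.65 CPM, above all imiquimod and below all sham ears (1.94 ± 0.25, edgeR adjusted p 8.31e-07). At day 8 Cyp2j12 alone of the 4 passed (0.93 ± 0.23, edgeR adjusted p 0.023), and this was lost without any 1 of imiquimod libraries 45, 48 and 49 or drug libraries 52, 54 and 56 (adjusted p 0.0516 to 0.0797). Cyp2j6 and Cyp2j9 were called at day 2 (0.32 and 0.54) but not without imiquimod libraries 9 and 11, where they were 0.21 (adjusted p 0.335) and 0.38 (adjusted p 0.185). The Cyp2j6 call was also lost without library 9, library 11 or drug library 13 alone (adjusted p 0.0596 to 0.0964).

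Another 7 genes, Cyp2s1, Cyp2b10, Cyp2b23, Cyp2b19, Cyp2g1, Cyp2a5 and Cyp2f2, form another such cluster in the RefSeq gene order and did not move together. Cyp2b19, a keratinocyte epoxygenase of arachidonic acid, held 137, 147 and 163 CPM in sham and 49.1, 78.5 and 101 in imiquimod ears at day 2, and at day 5 161, 163, 164 and 196 in sham and 40.7, 54.1 and 76.6 in imiquimod ears. There was no overlap at either day. The log2 fold changes were -0.91 ± 0.14 (edgeR adjusted p 1.91e-07), -1.60 ± 0.15 (edgeR adjusted p 3.95e-13) and -1.30 ± 0.14 (edgeR adjusted p 1.56e-11) at days 2, 5 and 8, and -0.45 ± 0.09 (edgeR adjusted p 2.5e-05) in the start-day experiment, where the groups met (112, 141 and 148 and 84.7, 101 and 112 CPM). With the drug from days 0, 3 and 5 the levels were 137, 157 and 164, then 148, 175 and 185, then 137, 162 and 189 CPM. All lay above all imiquimod ears and within or above the sham range, with log2 fold changes against imiquimod of 0.61 ± 0.09 (edgeR adjusted p 3.85e-06), 0.76 ± 0.09 (edgeR adjusted p 3.13e-07) and 0.71 ± 0.09 (edgeR adjusted p 2.39e-06). Of 9 markers of suprabasal epidermis, 6 rose and 3 fell with imiquimod there (38.1% and 39.9% of all tested genes). With the drug from day 3, 6 were higher (18% of all tested genes). Their sum was 10242 to 13380.0 CPM in sham, 27533 to 43859 in imiquimod and 48159.6 to 65011 in ears with the drug from day 3. The part of this tissue in the Cyp2b19 result was not tested. At day 5 the drug value of Cyp2b19 was 0.96 ± 0.14 (edgeR adjusted p 6.73e-07). The calls at day 2 (0.41, edgeR adjusted p 0.0317) and day 8 (0.50, 0.0484) were lost without imiquimod library 8, 9 or 11 or drug library 13, 14 or 15 at day 2 (adjusted p 0.0522 to 0.143), and without imiquimod libraries 45 to 49 or drug libraries 51, 52, 54, 55 and 56, left out singly, at day 8 (0.0549 to 0.129).

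Cyp2b10, the classical target of the nuclear receptor CAR, was unlike Cyp2b19 at day 2, where sham and imiquimod ears held 40.7, 47.5 and 53.5 and 42.96, 49.7 and 63.2 CPM (0.10, edgeR adjusted p 0.431). It fell later, with log2 fold changes of -0.52 ± 0.11 (edgeR adjusted p 6.28e-05) at day 5, -1.26 ± 0.11 (edgeR adjusted p 8.23e-15) at day 8 and -1.11 ± 0.16 (edgeR adjusted p 3.26e-07) in the start-day experiment, with no overlap. At day 8 the imiquimod ears held 18.1, 21.03 and 23.2 CPM and the drug ears 27.8, 36.01 and 43.6, again without overlap (0.77 ± 0.11, edgeR adjusted p 6.76e-05). Cyp2b10 was thus among the 5 P450 genes called at day 8, with Cyp1a1, Cyp2b19, Cyp2j12 and Cyp3a57. Cyp2b23 did not pass at day 2 either (0.06, edgeR adjusted p 0.86) and then fell, with -3.12 ± 0.34 (edgeR adjusted p 1.47e-11) at day 5 and -3.75 ± 0.34 (edgeR adjusted p 6.11e-14) at day 8. It was higher with the drug at day 5 (1.44 ± 0.34, edgeR adjusted p 0.000744) and from days 0, 3 and 5 (1.61, 1.19 and 1.48), and the call from day 3 was lost in limma voom with sample weights (1.08, adjusted p 0.0609).

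Cyp2f2, a P450 of airway club cells that activates naphthalene, fell from 80.01, 90.2 and 102 CPM in sham to 14.2, 15.8 and 17.7 in imiquimod ears of the start-day experiment (-2.51 ± 0.12, edgeR adjusted p 1.42e-17). Over the days the fold change was -0.51 ± 0.12 (edgeR adjusted p 0.00017), -1.59 ± 0.13 (edgeR adjusted p 6.04e-15) and -2.07 ± 0.12 (edgeR adjusted p 1.64e-19), without overlap at any day, and the effect differed among days (edgeR F test, adjusted p 2.86e-09). The drug gave 0.82 ± 0.12 (edgeR adjusted p 1.07e-06) at day 5, 0.81 from day 0, 0.50 from day 3 and 0.47 from day 5, all past the threshold. Cyp2g1, known from olfactory tissue, spread widely within groups and held 56.8, 88.1 and 162 CPM in sham and 13.4, 20.9 and 45.8 in imiquimod ears at day 2 (-1.90 ± 0.31, edgeR adjusted p 1.11e-06). It was the P450 gene with the lowest log2 fold change at that day, and it was higher with the drug at day 5 (1.51) and from days 0, 3 and 5 (1.41 to 1.79). Cyp2a5, a coumarin hydroxylase, fell at days 5 and 8 (-1.73 and -2.67) and in the start-day experiment (-2.06), and it passed in no drug comparison (-0.18 to 0.84). Of its transcript 31-base words 55.5% are shared with another gene, 44.9% with Cyp2a4, so its reads could have been split between copies and its values are uncertain.

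Cyp2s1, an epithelial P450 that metabolises retinoids and oxygenated fatty acids, was the exception of this cluster. At day 2 it held 13.5, 15.4 and 19.1 CPM in sham and 9.89, 12.1 and 16 in imiquimod ears, at day 5 13.7, 15.5, 15.7 and 21.2 and 23.1, 28.6 and 36.02, and in the start-day experiment 9.57, 10.9 and 14.9 and 19.1, 31.7 and 35.1. The groups did not overlap at day 5 or in the start-day experiment. The log2 fold change was 0.81 ± 0.15 (edgeR adjusted p 5.5e-06) at day 5, 0.40 ± 0.13 (edgeR adjusted p 0.00793) at day 8 and 1.33 ± 0.13 (edgeR adjusted p 2.92e-10) in the start-day experiment. The day 2 fall, -0.36 ± 0.14 (edgeR adjusted p 0.0256), was lost without imiquimod library 8 or 9 or sham library 6 (adjusted p 0.0624 to 0.078), and the effect differed among days (edgeR F test, adjusted p 4.12e-05). Cyp2s1 was lower with the drug at day 5 (-0.43 ± 0.13, edgeR adjusted p 0.0081), and from days 0, 3 and 5 the values were -0.22, -0.27 and -0.08 and did not pass.

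Outside these clusters, Cyp2d22 and Cyp2w1 fell in all 4 comparisons and were higher with the drug at day 5 (0.64 and 0.87) and from days 0 and 3. The Cyp2d22 call from day 5 (0.45) fell to 0.27 (adjusted p 0.0503) without drug library 13, and its day 2 call (0.37) was lost without imiquimod library 9 or 11 or drug library 13 or 15 (adjusted p 0.0562 to 0.0965). Cyp2u1, a fatty acid hydroxylase, fell at day 8 (-0.83) and, at -1.04, in the start-day experiment. Its calls at day 2 and day 5 (both -0.53) were lost without sham library 1 at day 2 (adjusted p 0.0544) and without imiquimod library 26 or 30 or sham library 20 or 21 at day 5 (0.051 to 0.0779). Cyp2ab1, close to the level minimum, was lower at day 2 alone (-1.56 ± 0.42, edgeR adjusted p 0.0012) and passed in no drug comparison. Cyp2ab1 reached the minimum through sham but not through imiquimod-only libraries, so its fall was partly built into its selection.

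**Figure D5:**
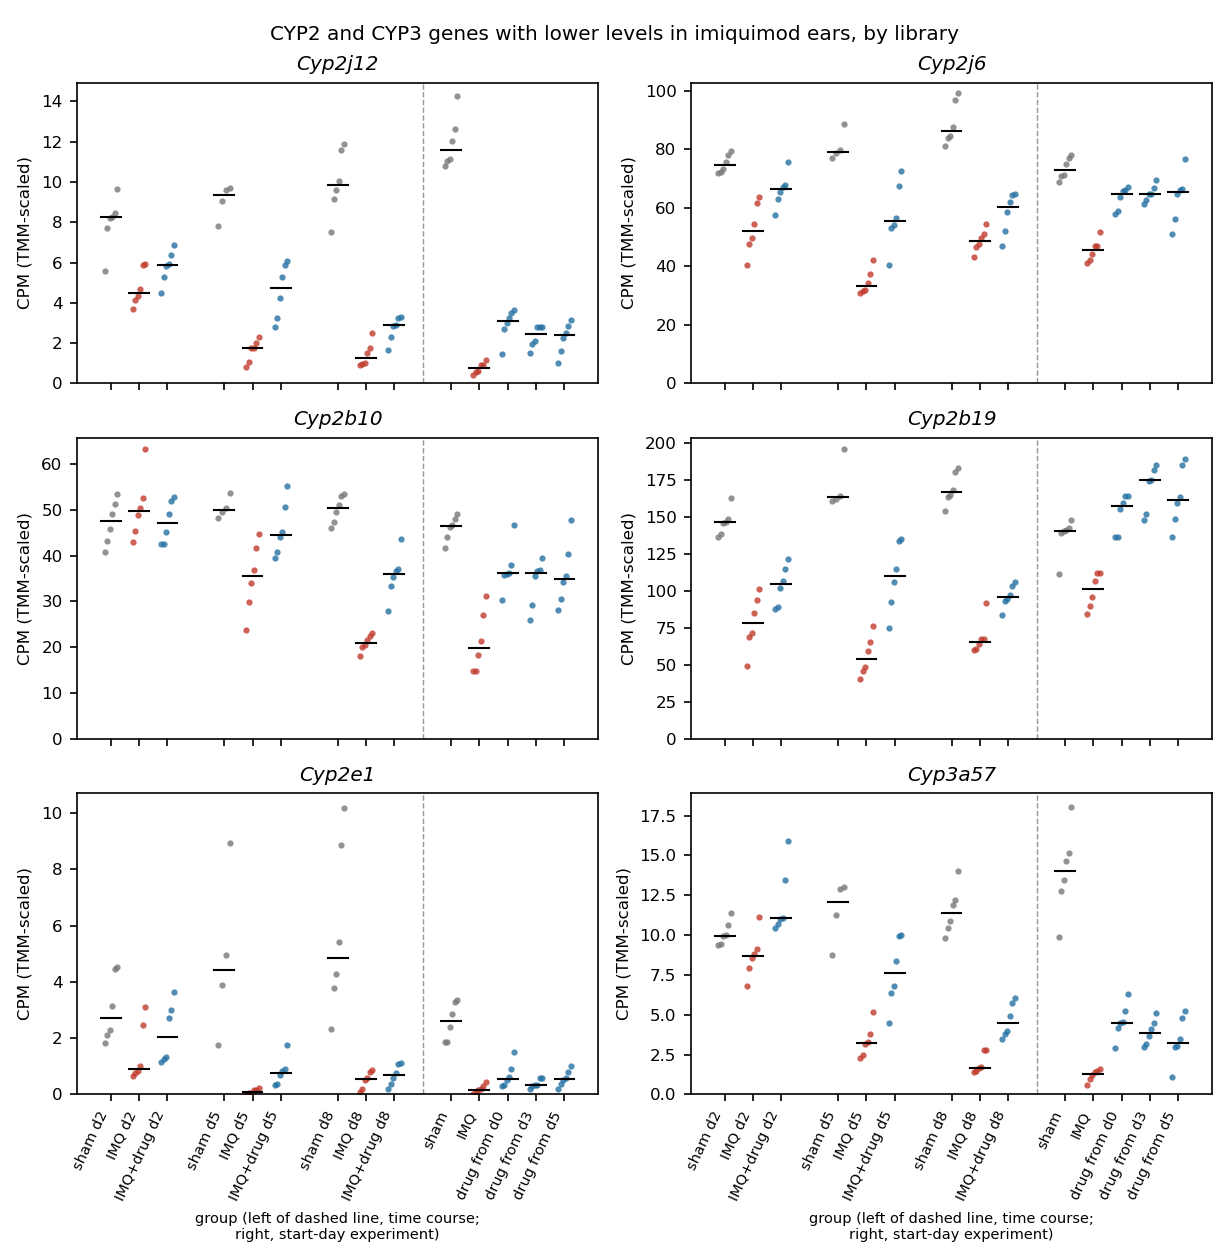
CPM (TMM-scaled, linear axes from 0) of Cyp2j12, Cyp2j6, Cyp2b10, Cyp2b19, Cyp2e1 and Cyp3a57 in each library (points) with group medians (bars), sham in grey, imiquimod in red and drug plus imiquimod in blue. Imiquimod ears lie below sham ears from day 5 in all 6 panels apart from the touching ranges of Cyp2b19 in the start-day experiment, the medians of drug ears lie between those of the other groups for Cyp2j12, and drug ears reach the sham range for Cyp2b19 in the start-day experiment.

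The CYP3 family gave 2 kept genes that differed. Cyp3a57 fell and Cyp3a13 did not. The Cyp3a57 promoter is shown because genes of this family are known targets of nuclear receptors that bind AGGTCA half-sites. It is from RefSeq (GRCm38.p6, chr5:145345019-145345268, plus strand), the 250 bases ahead of the start, 5′ to 3′, and capitals mark AGGTCA or, for the other strand, TGACCT.
Cyp3a57: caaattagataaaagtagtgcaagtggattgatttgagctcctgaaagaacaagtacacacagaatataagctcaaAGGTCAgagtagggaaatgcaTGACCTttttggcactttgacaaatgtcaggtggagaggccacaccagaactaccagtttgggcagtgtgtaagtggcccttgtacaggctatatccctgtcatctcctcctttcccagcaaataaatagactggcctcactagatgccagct
It holds 1 match on each strand, beginning 174 and 153 bases before the start, and AGGTCA on either strand was found in 14% of the 32851 promoters and in 5 of the 33 P450 promoters (15.2%). Cyp3a57 held 9.38, 9.96 and 11.4 CPM in sham and 6.82, 8.70 and 11.2 in imiquimod ears at day 2, which did not pass (-0.22, edgeR adjusted p 0.266). At day 8 the values were 9.84, 11.4 and 14.04 and 1.40, 1.69 and 2.82, and in the start-day experiment 9.91, 14.1 and 18.02 and 0.586, 1.31 and 1.61, both without overlap. The log2 fold change was -1.76 ± 0.19 (edgeR adjusted p 7.31e-12) at day 5, -2.56 ± 0.19 (edgeR adjusted p 6.26e-17) at day 8 and -3.51 ± 0.26 (edgeR adjusted p 6.77e-13) in the start-day experiment, and the effect differed among days (edgeR F test, adjusted p 1.39e-09).

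Cyp3a57 was called higher with the drug in all 6 comparisons. At day 8 the drug ears held 3.49, 4.46 and 6.05 CPM, above every imiquimod ear (1.25 ± 0.20, edgeR adjusted p 0.00058), and from day 0 the change was 1.91 ± 0.27 (edgeR adjusted p 4.17e-06), from day 3 1.68 ± 0.27 (edgeR adjusted p 2.52e-05) and from day 5 1.48 ± 0.28 (edgeR adjusted p 0.000201). At day 5 it was 1.18 ± 0.18 (edgeR adjusted p 9.8e-07). The day 2 call (0.47, edgeR adjusted p 0.041) was lost without any 1 of imiquimod libraries 7, 8, 9 and 11 or drug libraries 13, 15 and 16 (adjusted p 0.0525 to 0.152). Of its 31-base words 22.6% are shared with other genes, which leaves some uncertainty on which copy was counted. Cyp3a13 rose in the start-day experiment (0.58 ± 0.08, edgeR adjusted p 6.5e-08), was called at day 2 (0.34, edgeR adjusted p 0.0324), and gave -0.14 and -0.13 at days 5 and 8, which did not pass. The day 2 value was 0.22 (adjusted p 0.171) without imiquimod library 7, and the call was also lost without imiquimod library 12 or sham library 2, 5 or 6 (adjusted p 0.0509 to 0.13). With the drug at day 5 it was 0.45 ± 0.14 (edgeR adjusted p 0.00985), and 0.36 (adjusted p 0.0503) without drug library 32.

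Of the 7 CYP4 genes, which hydroxylate fatty acids and eicosanoids, Cyp4b1, Cyp4f13, Cyp4f17, Cyp4f37 and Cyp4v3 fell in all 4 comparisons and Cyp4f18 rose in 3. Of all genes, 21.4% fell in all 4. Cyp4f18, which inactivates leukotriene B4 and is known from neutrophils and other myeloid cells, held 0.379, 0.969 and 1.44 CPM in sham and 0.376, 1.15 and 2.94 in imiquimod ears at day 2, a difference that did not pass (0.53, edgeR adjusted p 0.194). At day 5 the sham values were 0.581, 0.644, 0.839 and 1.09 and the imiquimod values 4.68, 6.44 and 10.3, without overlap (3.15 ± 0.38, edgeR adjusted p 3.38e-10). At day 8 and in the start-day experiment the log2 fold changes were 2.80 ± 0.33 (edgeR adjusted p 2.14e-10) and 2.59 ± 0.22 (edgeR adjusted p 2.98e-12), also without overlap. With the drug it was 1.49, 3.05 and 5.38 CPM at day 5 (-1.22 ± 0.29, edgeR adjusted p 0.000732) and 2.72, 4.24 and 7.93 at day 8, which did not pass (-0.15). With the drug from day 5 the difference did not pass. From day 0 and day 3 the log2 fold change was -0.53 ± 0.19 (edgeR adjusted p 0.0321) and -0.57 ± 0.19 (edgeR adjusted p 0.0205). The first of these calls was lost without any 1 of imiquimod libraries 8, 9 and 10 or drug libraries 26 and 27 (adjusted p 0.0506 to 0.0815), and the second without imiquimod library 8 or drug library 24 (0.0506 and 0.0542).

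Neutrophil markers moved beside Cyp4f18. All 7 rose at day 5 and all 7 fell with the drug there (34.6% and 17.2% of all tested genes). Their sum was 3.15 to 5.61 CPM in sham, 4989.9 to 7398 in imiquimod and 337 to 4534 in drug ears. At day 2, where Cyp4f18 did not pass, 6 of the 7 rose (29.2% of all tested genes). The sum was then 2.39 to 36.9 CPM in sham and 147 to 2186 in imiquimod ears. The neutrophil marker Ly6g was at 0 in every sham library, and S100a8 and S100a9, which belong to the list, are also made by activated keratinocytes. Macrophage markers rose too (7 of 7 at day 5, sum 208 to 276 and 624 to 1029.8 CPM), and the part of either cell type in the Cyp4f18 result was not tested.

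Cyp4b1, a fatty acid hydroxylase that also activates some toxicants, had narrow ranges. It held 34.1, 34.5, 35.7 and 37.7 CPM in sham and 10.8, 13.1 and 15.4 in imiquimod ears at day 5, without overlap there or in the other comparisons. Fold changes (log2) were -0.42 ± 0.08 (edgeR adjusted p 1.61e-05), -1.43 ± 0.09 (edgeR adjusted p 4.25e-19) and -1.55 ± 0.09 (edgeR adjusted p 2.39e-21) at days 2, 5 and 8 and -1.87 ± 0.09 (edgeR adjusted p 5.74e-19) in the start-day experiment. The drug gave 0.37 at day 5, 0.44 from day 0, 0.37 from day 3 and 0.39 from day 5, all past the threshold. Cyp4f17, Cyp4f16, Cyp4f37 and Cyp4f13 also lie close together in the RefSeq gene order and moved differently. Cyp4f37 in the start-day experiment had a log2 fold change of -3.28 ± 0.30 (edgeR adjusted p 5.81e-12), Cyp4f13 of -0.88 and Cyp4f17 of -0.41, while Cyp4f16 stood at 0.20 and did not pass. Cyp4f16 rose at days 5 and 8 (0.40 at both) and was lower with the drug at day 5 (-0.41 ± 0.10, edgeR adjusted p 0.00198). Cyp4f37, which gave 26 counts over the 6 start-day imiquimod libraries, was higher with the drug at day 5 and from days 0, 3 and 5 (1.30 to 2.09). Of the 31-base words of Cyp4f37 and Cyp4f16, 27.4% and 26.8% are shared with other genes, so these 2 are uncertain as single genes.

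Cyp4v3, related to a human gene of fatty acid hydroxylation in the retina, fell, with log2 fold changes of -0.94, -1.06, -0.90 and -0.83 in the 4 comparisons. With the drug it was called higher at day 2 (0.34) and lower at day 5 (-0.26), and its drug effect differed among days (edgeR F test, adjusted p 0.0177). Both calls were lost without single libraries: at day 2 without imiquimod library 11 or drug library 13 (adjusted p 0.0565 and 0.0691), and at day 5 without any 1 of imiquimod libraries 25, 26, 27, 29 and 30 or drug libraries 31, 33, 34 and 35 (0.051 to 0.154). Cyp4f13 was called higher with the drug at day 2 (0.31) and day 5 (0.25), and the former was 0.22 (adjusted p 0.201) without imiquimod libraries 9 and 11. The latter was lost without the filter on low counts (adjusted p 0.0559). Cyp4f17 was called higher with the drug at day 2 (0.33), which was lost without imiquimod library 9 (adjusted p 0.0613). Cyp20a1, a P450 without a known substrate, fell at day 8 (-0.31) and in the start-day experiment (-0.51), and its day 5 value (0.15) did not pass. It was lower with the drug than with imiquimod alone at day 5 (-0.25, and adjusted p 0.0569 without the filter on low counts) and from days 0 and 3 (-0.27 and -0.27). Its call from day 5 (-0.21) was lost without any 1 of imiquimod libraries 7, 8 and 10 or drug libraries 13, 14 and 16 (adjusted p 0.0529 to 0.0733).

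The median log2 fold change of the electron donor and partner genes was 0.01, -0.20, -0.14 and -0.35 in the 4 imiquimod comparisons. Por, which passes electrons to P450s of the endoplasmic reticulum, rose at day 2 (0.30 ± 0.06, edgeR adjusted p 7.82e-05), at day 5 (0.47 ± 0.07, edgeR adjusted p 1.55e-07) and in the start-day experiment (0.44 ± 0.05, edgeR adjusted p 1.25e-10) and not at day 8 (-0.03). Of 10 electron donor and partner genes, 3 rose and 2 fell at day 2, 1 and 5 at day 5, 0 and 4 at day 8, and 1 and 8 in the start-day experiment. Of all tested genes, 57.7%, 70.4%, 68.1% and 78.1% were called in either direction in these comparisons. Among P450s not named Cyp and epoxide hydrolases, which open the epoxides that P450s form, 3 of 6 rose and 3 fell at day 5. Ephx1, Ephx2 and the prostacyclin synthase gene Ptgis fell, at log2 -1.57, -1.15 and -0.82, whereas Ephx3 rose by 1.21. Of 7 tested nuclear receptors known to induce P450s, 1 rose and 4 fell at day 5, where 34.6% of all tested genes rose and 35.9% fell. Ppara and Pparg fell, at log2 -1.79 ± 0.19 (edgeR adjusted p 6.92e-12) and -1.11 ± 0.12 (edgeR adjusted p 1.89e-11), and Ppard rose by 1.88 ± 0.12 (edgeR adjusted p 1.87e-18). With the drug at day 5 these stood at 0.67, 0.87 and -0.55, each past the threshold.

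Marker lists of skin structures and cell types were counted in the same comparisons. In the 4 imiquimod comparisons 29.2%, 34.6%, 34.5% and 38.1% of all tested genes rose, and 28.5%, 35.9%, 33.6% and 39.9% fell. With the drug 6.90%, 18.3% and 1.22% of all tested genes were higher at days 2, 5 and 8. From days 0, 3 and 5 these shares were 18.2%, 18% and 15%. The sum of 12 sebaceous gland markers was 7660.3 to 9263 CPM in sham and 4903 to 7316 in imiquimod ears at day 2, 7707 to 10051 and 2747 to 4032 at day 5, 9079 to 11603 and 2943 to 4454 at day 8, and 7843 to 9234 and 1930.5 to 2348 in the start-day experiment. Of the 12, 5 rose and 4 fell at day 2, and 1, 0 and 0 rose and 8, 9 and 11 fell in the other 3 comparisons. With the drug 11 of 12 were higher at day 5, 7 at day 8, 1 at day 2, and 11, 11 and 12 from days 0, 3 and 5. The sum with the drug was 4397 to 8103 CPM at day 5 and 3723 to 5229 from day 0. Fibroblast markers were mixed at day 5 (3 of 6 higher, 2 lower), and markers of skeletal muscle (7 of 7 lower at day 5), cartilage (4 of 5) and Schwann cells (5 of 5) were lower. Of 5 endothelial markers 2 were higher and 1 lower at day 5. Of 4 tested hair follicle markers 0 passed at days 2, 5 and 8 and 1 was lower in the start-day experiment. Of 9 suprabasal markers 5, 4, 5 and 6 rose and 3, 5, 4 and 3 fell in the 4 imiquimod comparisons. How far such shifts in cell content bear on any P450 value was not tested.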

How the data were processed

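Right ear punches were collected in RNAlater, RNA was extracted with TRI reagent, and libraries were built with the Universal Plus mRNA kit, per the labels' protocols. For each experiment the authors deposited 1 table of estimated counts by gene, made with salmon, and GRCm39 was the build, per the submitters' processing notes. Salmon's release, its annotation and its strand setting: not given in the sources used here. Columns were matched to samples by title, with 0 left over. Within groups, no library was a near copy of another.

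The expected counts were rounded and each experiment was fitted with edgeR 4.0.16 (R 4.3.3): filterByExpr on group, TMM factors, 1 coefficient per group, robust quasi-likelihood F tests and Benjamini-Hochberg adjustment over all tested genes. The P450 genes and the lists of partner and marker genes were chosen with earlier results of these data known. Fold changes against sham are given for 15 panel genes, whether or not they passed. Some of their drug values are not given. Values are also given for some of the 5 highest and 5 lowest called P450 genes of each comparison whose mean log2 CPM reached 0. Other genes are named with a fold change or the outcome of the test. From each partner list up to 4 called genes were named, plus Por, Ahr and Vdr. Alternatives were DESeq2 1.42.0, RLE size factors, a filter of 1 CPM, no low-count filter, limma 3.58.1 voom with sample weights, only the compared groups, and each library left out. Simulated data were used to test the edgeR script. Promoters came from RefSeq (GRCm38.p6), shared 31-base words from GENCODE transcripts, and gene order from RefSeq. Figures were drawn with matplotlib 3.10.9. A gene with 3 counts in a library stands at 0.0848 to 0.229 CPM in the time course, and counting error is large at that level.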

Additional observations from a re-analysis of the deposited data

Results flagged for a closer look

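In 210 checks of 15 P450 genes in 14 groups for a library far from the rest of its group, 9 stood out, and chance gives about 1 in 20 such checks. Cyp2b19 stood at 196 CPM in day 5 sham library 21, at 92.0 in day 8 imiquimod library 44 and at 112 in start-day sham library 2. Cyp2s1 stood at 28.1 CPM in day 8 drug library 51. Cyp24a1 stood at 1.43 CPM in day 2 drug library 15 and at 0.350 in day 5 imiquimod library 26. Cyp27a1 stood at 4.82 CPM in day 2 drug library 17 and at 8.37 in library 18 of the group with the drug from day 5, both below their groups, and Cyp27b1 at 0.675 in day 8 imiquimod library 47.

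The effect of imiquimod differed among days 2, 5 and 8 for 13 of these 15 genes by edgeR's F test on the contrasts between days. Of all tested genes 33.4% passed this test. The adjusted p was 5.25e-08 for Cyp1a1, 0.000809 for Cyp1b1, 0.0175 for Cyp2b19, 4.46e-05 for Cyp2e1 and 2.86e-09 for Cyp2f2. It was 4.12e-05 for Cyp2s1, 1.8e-10 for Cyp4b1, 6.34e-05 for Cyp4f18 and 0.00289 for Cyp7b1. It was 0.00345 for Cyp24a1, 0.00681 for Cyp26a1, 1.06e-11 for Cyp26b1 and 0.000319 for Cyp27a1. Of these, Cyp1a1 and Cyp2s1 changed sign between day 2 and the later days. The effect of the drug differed among days for 5 of the 15, and for 7.99% of all tested genes. The adjusted p of this F test was 0.00152 for Cyp1a1, 0.00858 for Cyp1b1, 0.00521 for Cyp2f2, 0.0378 for Cyp2s1 and 0.0169 for Cyp26b1.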

How the results depend on the processing

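The imiquimod counts stayed within 1.5 times the main count under every alternative that was run, at 25 to 29 (day 2), 34 to 37 (day 5), 34 to 35 (day 8) and 36 to 36 (start-day experiment) with 1 library left out. For the drug at day 2 the 10 calls became 0 when only the compared groups were fitted and 0 without imiquimod libraries 9 and 11. In these 2 fits 0 and 7 of all genes passed, against 3100 in the main fit. The day 2 calls ranged from 5 to 14 with 1 library left out. At day 8 the 5 calls became 8 in limma voom, where 820 of all genes passed, against 293 in the main fit. With 1 library left out they ranged from 3 to 5. The drug counts at day 5 ranged from 29 to 32, and those of the D0, D3 and D5 starts from 23 to 27, 22 to 25 and 18 to 26. The 0 calls among start days became 1 in DESeq2, where 130 of all genes passed, against 1 in the main fit. The causes were not tested. None of the 254 called gene and comparison pairs changed sign under any alternative that was run, while 13 and 86 uncalled values did among the 2 sets that follow. Among the alternatives other than leaving out a library, 59 of 2425 values lost the call and 22 gained one, and with 1 library left out 117 of 4720 lost it and 41 gained one. These totals include pairs not called in the main fit, which could not lose a call. Of the drug calls 0 of 10, 26 of 31 and 3 of 5 at days 2, 5 and 8 were kept in every fit. From days 0, 3 and 5 it was 23 of 26, 21 of 24 and 17 of 24. Of the imiquimod calls 23 of 28, 34 of 35, 34 of 35 and 36 of 36 were kept. Some calls given above as lost without single libraries were also lost under other alternatives. Without the low-count filter these included Cyp11a1 from day 3 and Cyp4f18 from days 0 and 3. With only the compared groups they included Cyp17a1 and Cyp2d22 from day 5 and Cyp2j12 at day 8. No paired analysis was possible because the groups compared within an experiment share no replicate numbers. Depth limits Cyp2e1, Cyp8b1, Cyp24a1, Cyp2ab1 and Cyp4f37, each with under 5 counts per library on average in at least 1 group.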
